A study of Mus musculus with 12 samples.

Results

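The question addressed was whether the expression difference that goes with Cre in the kidney of Pkd1 mice is larger, smaller or different in direction after removal of 1 kidney than after a sham operation. It was read from a difference of differences. For every gene, CrePlus minus CreMinus in kidneys after unilateral nephrectomy (UNx) was set against CrePlus minus CreMinus in sham-operated kidneys, both on the log2 scale. A positive interaction means that the Cre difference was more positive after UNx, and the same number is the UNx difference in CrePlus mice minus that in CreMinus mice. All 12 libraries of the series entered, each listed as a separate adult kidney sample, with 3 libraries in each of 4 groups. All mice were Pkd1 mice induced with tamoxifen at 6 to 8 weeks of age, the CreMinus mice included, and kidneys were taken 4 weeks after surgery. The groups were sham CreMinus (both kidneys, no Cre), sham CrePlus (both kidneys, Cre), UNx CreMinus (1 kidney, no Cre) and UNx CrePlus (1 kidney, Cre). The labels name neither the promoter that drives Cre nor the part of Pkd1 that it removes, and do not say whether any library pools animals.

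Pkd1 encodes polycystin-1, a large membrane protein that works with polycystin-2 in the primary cilium of tubule cells, and its loss leads to cysts that grow out of the tubules. After unilateral nephrectomy the remaining kidney enlarges, mostly by growth of its tubule cells. Injury and compensatory growth are both known to speed cyst formation once Pkd1 is lost in the adult, and macrophages gather around cysts. On the log2 scale, an interaction is what the joint state shows beyond the sum of the Cre difference and the surgery difference.

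Depth fell into separate ranges, with a total of 18914300 to 22480895 counts in 8 libraries and of 41699032 to 42785476 in the other 4, namely all of UNx CrePlus and, from UNx CreMinus, replicate 1. By Xist and Y-linked genes 5 libraries were male. These were replicate 3 of each sham group, replicate 1 of UNx CreMinus and replicates 1 and 2 of UNx CrePlus, and the other 7 were female. UNx CrePlus was thus the only group with 2 males, and the only group in which all 3 libraries were deep. Beside the interaction, sex and depth are therefore uneven. The part of sex was examined with a sex term and within each sex. A fit with sex and depth terms was also run, but only UNx CreMinus held both depth ranges, through replicate 1, its only male. The depth term thus rests mainly on that library, and depth cannot be told apart from the UNx CrePlus group. Proximal tubule markers summed to 24000 to 31100 CPM (counts scaled to library size) over the libraries, and the fat cell gene Ucp1 stood apart in sham CrePlus replicate 3, as described at the end.

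No gene passed the test of the interaction. Of 14970 genes tested with edgeR's quasi-likelihood test, 0 had a Benjamini-Hochberg adjusted p under 0.05 (0%), and the lowest adjusted p was 0.9999. DESeq2 and limma voom also called 0. At an unadjusted p under 0.05 there were 277 genes (1.85%), of which 171 were positive (1.14%) and 106 negative (0.708%), and DESeq2 gave 381. If no gene had an interaction, a share of about 0.05 would be expected under this limit, so the 277 genes are no excess. The smallest unadjusted p was 0.00146. With a term for sex, 568 genes (3.79%) had an unadjusted p under 0.05 and 0 were called.

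How large an interaction these libraries allow differed with expression. The median standard error (SE) of the interaction was 0.24 on the log2 scale, and the 95% interval reached a median of 0.53 to either side. For 10038 genes (67.1%) the whole interval lay within 1 log2 unit of 0, so that a 2-fold difference between the Cre effects fell outside it. For 6399 genes (42.7%) it lay within a 1.5-fold difference. The median reach was 0.39 for the 9816 genes with a mean of at least 10 CPM and 1.5 for genes under 1 CPM. The interaction itself had a median of -0.02 over all genes, with the middle 90% of genes between -0.44 and 0.70, and 45.3% of genes were above 0.

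**Figure D1:**
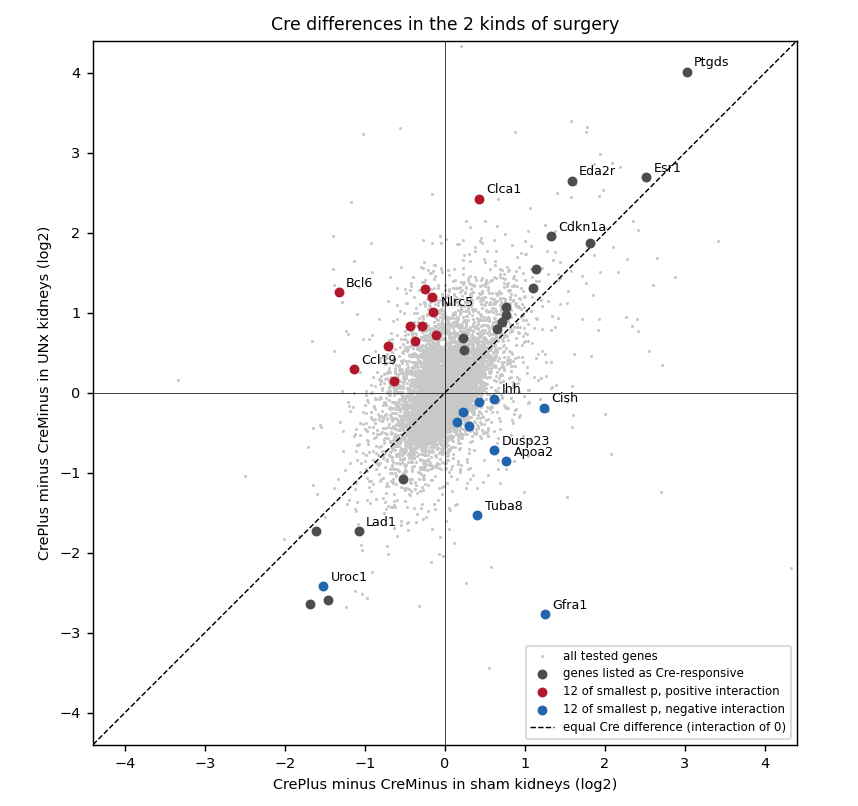
Each point is a tested gene, placed by its CrePlus minus CreMinus difference (log2) in sham kidneys (x axis) and in UNx kidneys (y axis), and the vertical distance from the dashed diagonal is the interaction. Red and blue points are the 12 genes of smallest unadjusted p in each direction, dark points are the other genes listed as Cre-responsive, and 7 genes lie outside the axes, Ucp1 among them. Bcl6 and Ccl19 lie below 0 in sham and above 0 in UNx kidneys, Cish and Ihh lie above 0 in sham kidneys only, and Ptgds, Cdkn1a and Uroc1 lie farther from 0 in UNx than in sham kidneys.

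The genes nearest to passing are described by their values, as none passed. Among the positive genes, the 12 of smallest p with a mean of at least 1 CPM were Clca1, Slfn2, Cep97, Nlrc5, Ccl19, Bcl6, Gpihbp1, Dact1, Gpr35, Traf3ip3, Arhgdib and Evi2a. Clca1 encodes a secreted regulator of chloride channels, Nlrc5 the activator of MHC class I genes and Ccl19 a chemokine that guides lymphocytes and dendritic cells. Slfn2 and Arhgdib are expressed mainly in blood cells, and Gpihbp1 holds lipoprotein lipase on capillary endothelium. Of these 12, Clca1, Gpihbp1 and Arhgdib had all 3 UNx CrePlus libraries above the other 9 libraries. This order was found in 32 of the 171 positive genes at an unadjusted p under 0.05 and in 1.33% of all genes, and since the interaction chose these genes, nothing is read from that difference.

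Clca1 (gene 23844, GRCm38 chromosome 3, 145004537 to 145032776) was at 3.21, 2.77 and 3.60 CPM in sham CreMinus, 6.06, 3.35 and 3.46 in sham CrePlus, 2.13, 3.27 and 3.90 in UNx CreMinus and 21.6, 19.6 and 8.29 in UNx CrePlus kidneys. Every UNx CrePlus library lay above all others, and the lowest of them was the female replicate 3. Its Cre difference was 0.43 in sham and 2.42 in UNx kidneys, and the interaction was 2.00 ± 0.53 (SE), with an unadjusted p of 0.00316. The interaction of Clca1 was 3.32 within males and 0.55 within females.

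Nlrc5 (gene 434341, chromosome 8, 94434335 to 94527272) was at 4.25, 4.13 and 6.97 CPM in sham CreMinus, 5.26, 3.44 and 5.14 in sham CrePlus, 3.57, 3.08 and 3.80 in UNx CreMinus and 8.00, 6.99 and 6.11 in UNx CrePlus kidneys. The Nlrc5 libraries of UNx CrePlus lay above all UNx CreMinus libraries, while the sham groups overlapped and the male sham CreMinus library was near the UNx CrePlus level. Its interaction was 1.16 ± 0.34, from a Cre difference of -0.15 in sham and 1.01 in UNx kidneys. Gpihbp1 was at 11, 10.5 and 9.59 CPM in sham CreMinus, 8.56, 6.89 and 9.98 in sham CrePlus, 9.13, 11.1 and 8.26 in UNx CreMinus and 15.5, 23.7 and 11.7 in UNx CrePlus kidneys. Its UNx CrePlus libraries were the 3 highest, though the lowest of them exceeded a UNx CreMinus library by little, and the interaction was 1.12 ± 0.34.

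In part of the 12 positive genes the sham groups carried much of the interaction. Ccl19 was at 4.75, 2.96 and 4.68 CPM in sham CreMinus, 2.80, 1.43 and 1.38 in sham CrePlus, 2.44, 2.58 and 2.38 in UNx CreMinus and 3.52, 3.05 and 2.47 in UNx CrePlus kidneys. The sham groups of Ccl19 did not overlap and the UNx groups did, so that a Cre difference of -1.13 in sham kidneys stood beside 0.29 in UNx kidneys. Cep97, whose product sits at the centriole and restrains cilium assembly, had Cre differences of -0.64 in sham and 0.14 in UNx kidneys. Over all 171 positive genes at an unadjusted p under 0.05, which the same contrast chose, the median Cre difference was -0.30 in sham and 0.65 in UNx kidneys, and 151 had opposite signs in the 2 kinds of kidney. Of all 14970 genes, 4.66% had sham CrePlus libraries all above sham CreMinus and 3.49% all below. In UNx kidneys the shares were 8.33% and 7.47%.

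**Figure D2:**
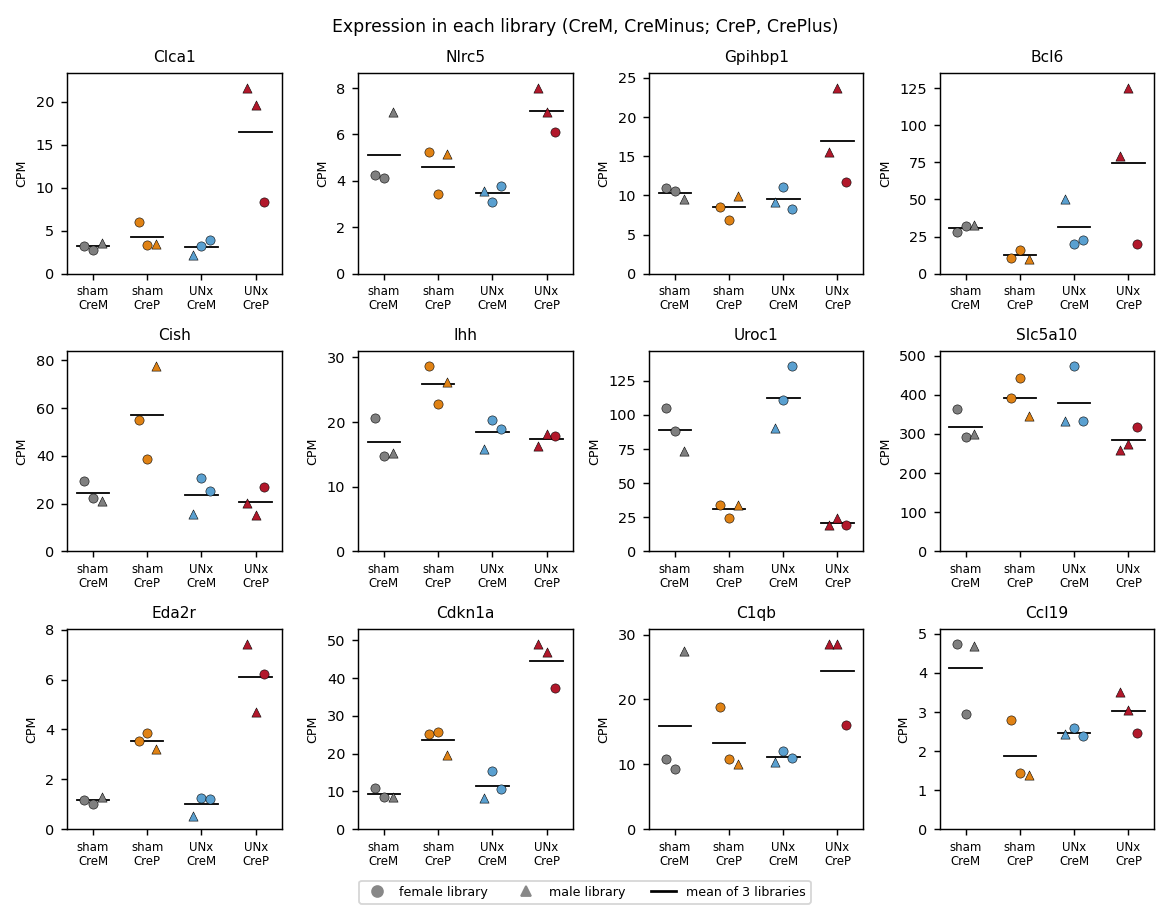
CPM of 12 genes in each library (y axis from 0), by group, with circles for female and triangles for male libraries and a line at the mean of 3 libraries. In UNx CrePlus kidneys Clca1 reached 21.6 CPM and was lowest in the female library at 8.29, Cish and Ihh were highest in sham CrePlus kidneys, and Uroc1 was low in both CrePlus groups.

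Cish and Bcl6 had sham groups that did not overlap and UNx groups that did. Cish encodes an inhibitor that the transcription factor STAT5 induces, and Bcl6 a repressor whose gene STAT5 is known to hold down. Cish (gene 12700, chromosome 9, 107296659 to 107302784) was at 29.6, 22.3 and 21.0 CPM in sham CreMinus, 55.0, 38.7 and 77.7 in sham CrePlus, 15.5, 30.8 and 25.2 in UNx CreMinus and 20.4, 15.4 and 26.9 in UNx CrePlus kidneys. Sham CrePlus libraries lay above sham CreMinus without overlap, and the UNx groups overlapped. The Cre difference of Cish was 1.23 in sham and -0.19 in UNx kidneys, and its interaction was -1.42 ± 0.43, with an unadjusted p of 0.00758.

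Bcl6 (gene 12053, chromosome 16, 23965050 to 23988866) showed the reverse order. It was at 28.2, 32.0 and 32.6 CPM in sham CreMinus, 10.9, 16.3 and 9.83 in sham CrePlus, 50.5, 20.3 and 22.9 in UNx CreMinus and 79.5, 125 and 19.9 in UNx CrePlus kidneys. In sham kidneys the CrePlus libraries of Bcl6 were all below the CreMinus libraries, whereas in UNx kidneys the 3 male libraries were high and the 3 female ones were between 19.9 and 22.9. The interaction was 2.58 ± 0.77, at 2.75 within males and 1.03 within females. Socs2, another STAT5-induced inhibitor, was looked up after these values were seen. It is a single gene picked by hand, and other STAT5 targets were not examined. Socs2 was at 14.1, 20.3 and 10.7 CPM in sham CreMinus, 27.5, 30.5 and 24.6 in sham CrePlus, 14, 17.8 and 22.1 in UNx CreMinus and 21.9, 20.3 and 15.9 in UNx CrePlus kidneys. Like Cish, Socs2 was higher in every sham CrePlus than in every sham CreMinus library and overlapped between the UNx groups, with an interaction of -0.76 ± 0.33.

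The other negative genes of smallest p were Tuba8, Dusp23, Apoa2, Uroc1, Ihh, Gfra1, Fcgr2b, Copa, Slc5a10, Ints10 and Ucp1. Ihh (gene 16147, chromosome 1, 74945315 to 74951672), a hedgehog ligand, was at 20.6, 14.8 and 15.3 CPM in sham CreMinus, 28.7, 22.8 and 26.2 in sham CrePlus, 15.9, 20.4 and 19.0 in UNx CreMinus and 16.3, 18.1 and 17.9 in UNx CrePlus kidneys. Only the sham groups of Ihh were apart, and the interaction was -0.69 ± 0.21, at -0.66 from the mean log2 CPM of males and -0.68 from that of females. Slc5a10, a sugar transporter of the proximal tubule, was at 363, 292 and 301 CPM in sham CreMinus, 391, 443 and 345 in sham CrePlus, 332, 474 and 333 in UNx CreMinus and 260, 275 and 318 in UNx CrePlus kidneys. Its UNx CrePlus libraries were all below UNx CreMinus while its sham groups overlapped, and the interaction was -0.72 ± 0.23. Gfra1, the co-receptor of the growth factor GDNF, had the widest interval among these genes after Ucp1, with an interaction of -4.02 ± 1.26, and ranged from 1.38 to 27.8 CPM within sham CrePlus kidneys alone. Over the 106 negative genes at an unadjusted p under 0.05, the median Cre difference was 0.15 in sham and -0.38 in UNx kidneys.

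Genes that an earlier analysis of these libraries had found to differ with Cre were examined for whether that difference changes with surgery. This list was chosen on the same libraries, partly on the UNx Cre difference that enters the interaction, so its direction is not independent evidence. All 20 had the same direction in sham and UNx kidneys and all 20 had the larger size in UNx kidneys, with a median size of 1.12 in sham and 1.74 in UNx kidneys. Over all tested genes 59.9% had the larger size in UNx kidneys, at medians of 0.115 and 0.146. For 14 of the 20 the 95% interval of the interaction included 0, and for 7 it lay within 1 log2 unit. None of the 20 passed the test, and 6 had an unadjusted p under 0.05, against 1.85% of all genes. Clca1, Cxcl16, Eda2r and Ajuba had a positive interaction (1.14% of all genes) and Uroc1 and Reep6 a negative one (0.708%). As the list was chosen partly on the UNx Cre difference, nothing is read from these counts.

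Uroc1 (gene 243537, chromosome 6, 90333239 to 90364551), an enzyme of histidine breakdown, was at 105, 88.6 and 73.5 CPM in sham CreMinus, 34.3, 24.6 and 34.0 in sham CrePlus, 90.5, 111 and 136 in UNx CreMinus and 19.1, 24.6 and 19.5 in UNx CrePlus kidneys. The CrePlus libraries were far below the CreMinus libraries under both surgeries, with a Cre difference of -1.52 in sham and -2.42 in UNx kidneys. The interaction of Uroc1 was -0.90 ± 0.27, with an unadjusted p of 0.00655, and was nearly the same in the mean log2 CPM of males (-0.95) and females (-0.92). UNx minus sham was 0.34 in CreMinus and -0.56 in CrePlus kidneys.

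Ptgds, an enzyme of prostaglandin synthesis, was at 2.49, 5.07 and 2.90 CPM in sham CreMinus, 34.5, 23.8 and 26.7 in sham CrePlus, 2.47, 4.05 and 3.14 in UNx CreMinus and 35.3, 41.2 and 78.1 in UNx CrePlus kidneys. The UNx CrePlus libraries of Ptgds were the 3 highest, led by the female replicate 3, and the interaction was 0.99 ± 0.49 with a 95% interval from -0.09 to 2.07. Chpf, Zmat3, Glis2 and Pkd2 had narrow intervals around small interactions. These were 0.21 (-0.10 to 0.53) for Chpf, an enzyme of chondroitin synthesis, 0.20 (-0.08 to 0.49) for Zmat3, a p53 target, and 0.17 (-0.16 to 0.50) for Glis2. For Pkd2, which encodes polycystin-2, the interaction was 0.14 (-0.24 to 0.52), with 260, 330 and 294 CPM in sham CreMinus, 416, 492 and 481 in sham CrePlus, 272, 264 and 240 in UNx CreMinus and 457, 401 and 487 in UNx CrePlus kidneys. The Pkd2 libraries of CrePlus lay above those of CreMinus under both surgeries at similar levels. At the other end, Esr1 (0.17, -1.18 to 1.52), Psrc1 and Pcolce2 had intervals wide enough to hold a 2-fold difference in either direction.

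**Figure D3:**
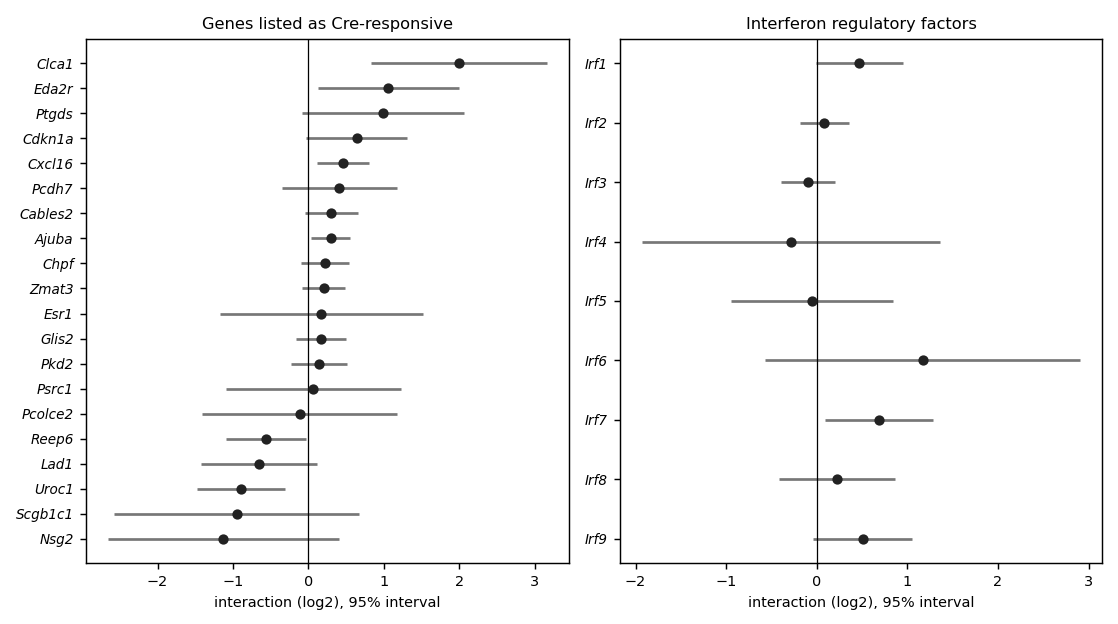
Interaction (log2, x axis) with its unadjusted 95% interval for the 20 genes listed as Cre-responsive (left) and the 9 interferon regulatory factors (right). Clca1 and Uroc1 have intervals that leave out 0, Glis2 and Pkd2 have narrow intervals that hold 0, and that of Irf5 runs from -0.94 to 0.84.

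Targets of p53, the transcription factor that answers DNA damage, had a median interaction of 0.15, with 12 of 16 above 0 (45.3% of all genes) and 2 of 16 at a positive unadjusted p under 0.05 (1.14% of all genes). The median ran from 0.09, without UNx CreMinus replicate 1, to 0.26, without sham CrePlus replicate 2. It was 0.33 within males (14 of 16 above 0) and -0.003 within females (8 of 16). All 3 UNx CrePlus libraries lay above the other 9 for 5 of the 16, against 1.33% of all genes, and these were Ccng1, Cdkn1a, Eda2r, Plk2 and Zmat3. Of the 16, Cdkn1a, Eda2r, Psrc1 and Zmat3 are also among the Cre-responsive genes chosen on these libraries, so the count is not independent of that choice. Cdkn1a, which blocks the cell cycle, was at 11, 8.6 and 8.65 CPM in sham CreMinus, 25.2, 25.8 and 19.6 in sham CrePlus, 8.23, 15.4 and 10.7 in UNx CreMinus and 49.1, 46.8 and 37.3 in UNx CrePlus kidneys. Its Cre difference was 1.32 in sham and 1.96 in UNx kidneys, and the interaction of 0.64 ± 0.30 had a 95% interval from -0.03 to 1.31. Eda2r, a receptor of the TNF receptor family, was at 1.18, 1.03 and 1.31 CPM in sham CreMinus, 3.52, 3.87 and 3.21 in sham CrePlus, 0.540, 1.24 and 1.22 in UNx CreMinus and 7.44, 4.68 and 6.23 in UNx CrePlus kidneys. For both genes the order was CreMinus, then sham CrePlus, then UNx CrePlus, with no overlap between these 3 levels. The interaction of Eda2r was 1.06 ± 0.42, and that of the kinase gene Plk2 was 0.51 ± 0.18, from 0.37 in sham and 0.88 in UNx kidneys. Within males and females the interactions were 1.36 and 0.13 for Cdkn1a, 2.19 and 0.60 for Eda2r and 0.33 and 0.44 for Plk2.

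Pkd1 (gene 18763, chromosome 17, 24548689 to 24596514), the targeted gene, had an interaction of -0.07 ± 0.26, and the Cre difference was -0.32 in sham and -0.39 in UNx kidneys. Pkd1 was at 76.8, 60.3 and 57.8 CPM in sham CreMinus, 64.1, 46.1 and 45.9 in sham CrePlus, 49.4, 49.3 and 71.6 in UNx CreMinus and 45.5, 39.6 and 45.1 in UNx CrePlus kidneys. CrePlus levels were thus lower by a similar amount under both surgeries, and since the deleted part is not named, counts over the whole gene are no gauge of the deletion. Polycystin and cystic disease genes had a median interaction of -0.07, with 7 of 20 above 0 and 0 of 20 at an unadjusted p under 0.05. Their intervals were narrow, with a median reach of 0.35.

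Irf5 (gene 27056, chromosome 6, 29526130 to 29541869), the macrophage transcription factor named in the title of the series, had an interaction of -0.05 ± 0.40, with a 95% interval from -0.94 to 0.84. It was at 12.9, 11.8 and 15.8 CPM in sham CreMinus, 16.5, 17.4 and 22.7 in sham CrePlus, 15.4, 11.2 and 13.2 in UNx CreMinus and 14.9, 27.6 and 11.3 in UNx CrePlus kidneys. The Irf5 groups were apart in sham kidneys only, and the UNx CrePlus libraries ranged from 11.3 CPM, near the lowest of all 12 libraries, to the highest. Leaving out 1 library at a time moved its interaction between -0.51, without UNx CrePlus replicate 2, and 0.19, without UNx CrePlus replicate 3.

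Of the 9 interferon regulatory factors, 6 were above 0 (45.3% of all genes). The list median was 0.74 within males (7 of 9 above 0) and 0.01 within females (5 of 9). Irf7, which drives interferon production, was alone at an unadjusted p under 0.05 (1.85% of all genes), with an interaction of 0.68 ± 0.27. Irf7 was at 16.3, 13.6 and 13 CPM in sham CreMinus, 14.4, 11.8 and 9.93 in sham CrePlus, 17.2, 14.6 and 18.3 in UNx CreMinus and 24.6, 26.4 and 16.7 in UNx CrePlus kidneys. The female UNx CrePlus library lay within the UNx CreMinus range and the male ones above it. Irf1, an early factor of the interferon response, had an interaction of 0.47 ± 0.22, with all UNx CrePlus libraries above the other 9. Within males and females the interaction of Irf1 was 1.06 and 0.11. That of Irf9 was 0.51 ± 0.25. The interactions of Irf2 and Irf3 were small with narrow intervals, at 0.08 (-0.19 to 0.35) and -0.10 (-0.40 to 0.20).

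Immune cell and interferon genes had positive interactions on balance, and no member passed. The median was 1.26 for T and NK cell markers (8 of 9 tested above 0), 1.13 for macrophage markers (17 of 19) and 0.47 for interferon-stimulated genes (17 of 18), against -0.02 and 45.3% for all genes. It was 0.49 for MHC class II and dendritic cell genes (12 of 14), 0.63 for complement genes (11 of 14) and 0.64 for proinflammatory macrophage products (6 of 7). Single libraries moved these medians. Without sham CreMinus replicate 3 that of proinflammatory products was 0.18 and that of MHC class II genes 0.33, and without sham CreMinus replicate 1 that of complement genes was 0.38. Within females the proinflammatory median was -0.35, with 2 of 7 above 0. The T and NK cell median was 1.87 within males and 0.10 within females, where 5 of 9 were above 0. The intervals of these markers reached a median of 1.69 to either side. Of 15 T and NK cell markers with counts 9 passed the count filter, and of 11 proinflammatory products 7 did. That filter can pass a gene on 3 libraries. A low gene may thus have entered through UNx CrePlus alone, which favours positive values. At an unadjusted p under 0.05 and positive were 3 of 19 macrophage markers, 3 of 18 interferon-stimulated genes and 1 each of the T and NK cell, MHC class II and complement lists, against 1.14% of all genes, and 0 of these lists' genes were negative at that limit. In whole kidney RNA, more immune cells and more RNA of these genes per cell cannot be told apart.

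C1qb, a subunit of complement C1q made by macrophages, was at 10.8, 9.30 and 27.5 CPM in sham CreMinus, 18.9, 10.8 and 9.98 in sham CrePlus, 10.3, 12.1 and 11 in UNx CreMinus and 28.6, 28.6 and 16 in UNx CrePlus kidneys. Its 2 male UNx CrePlus libraries were highest, but the male sham CreMinus library reached nearly the same level and sham CrePlus replicate 1 stood above the other sham CrePlus libraries. Its interaction was 1.39 ± 0.57, and 2.94 within males against -0.10 within females. The mean centred log2 expression of the 19 macrophage markers told the same order. It was -0.42, -0.82 and 0.75 in sham CreMinus, 0.49, -0.61 and -0.46 in sham CrePlus, -0.43, -0.13 and -0.30 in UNx CreMinus and 0.90, 0.99 and 0.05 in UNx CrePlus kidneys. The median interaction of macrophage markers was 0.46 without sham CreMinus replicate 3 and 1.65 without sham CrePlus replicate 1.

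Interferon-stimulated genes varied less between libraries of a group. Their mean centred expression was 0.02, -0.19 and -0.29 in sham CreMinus, 0.04, -0.19 and -0.50 in sham CrePlus, -0.16, 0.00 and 0.05 in UNx CreMinus and 0.60, 0.44 and 0.17 in UNx CrePlus kidneys, so that all UNx CrePlus libraries, the female one included, lay above the other 9. For 6 of 18 members all UNx CrePlus libraries lay above the other 9, against 1.33% of all genes. Ifit1, an antiviral RNA-binding protein, was at 6.07, 5.21 and 3.65 CPM in sham CreMinus, 4.75, 5.26 and 3.80 in sham CrePlus, 5.32, 6.35 and 4.56 in UNx CreMinus and 10.5, 7.73 and 6.87 in UNx CrePlus kidneys. Its UNx CrePlus libraries were highest by a small margin, and its interaction was 0.74 ± 0.33. The median of the list stayed between 0.39 and 0.63 when each library was left out, and was 0.45 with a sex term.

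**Figure D4:**
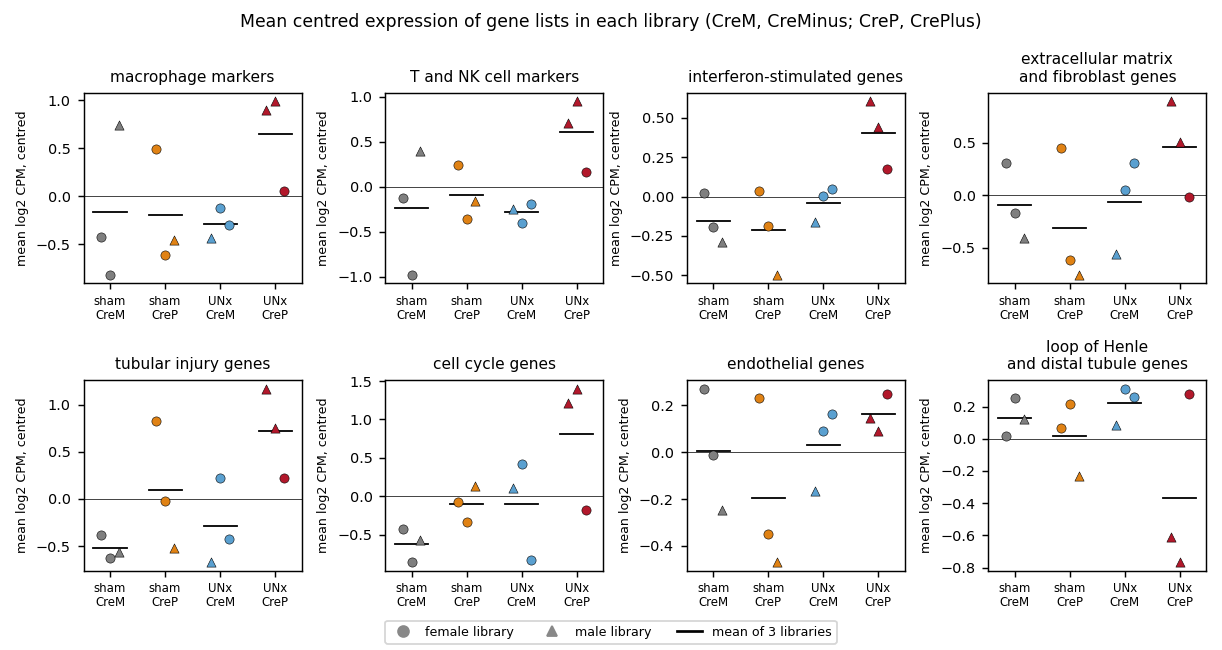
Mean log2 CPM of 8 gene lists in each library, centred on the mean of all 12 libraries (y axis), with circles for female and triangles for male libraries and a line at the group mean. Macrophage markers are high in the male sham CreMinus library (0.75) and in sham CrePlus replicate 1 (0.49) and also in both male UNx CrePlus kidneys. The female UNx CrePlus library is at -0.17 for cell cycle genes, where the male ones are above 1, and at 0.28 for loop of Henle and distal tubule genes, where the male ones are below 0.

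Extracellular matrix and fibroblast genes had a median interaction of 0.62, with 21 of 22 above 0 (45.3% of all genes) and 3 of 22 at a positive unadjusted p under 0.05 (1.14% of all genes). The median ran from 0.34 when UNx CrePlus replicate 1 was left out to 1.15 when sham CrePlus replicate 1 was. The largest of the 3 were the contractile genes Tagln (1.21 ± 0.44) and Acta2 (1.10 ± 0.40). Acta2 was at 87.7, 50.0 and 50.8 CPM in sham CreMinus, 46.5, 39.0 and 28.2 in sham CrePlus, 31.1, 59.3 and 53.1 in UNx CreMinus and 72.4, 55.9 and 57.4 in UNx CrePlus kidneys. The sham CrePlus libraries of Acta2 lay below all sham CreMinus libraries, and the UNx groups overlapped. Smooth muscle and ureter genes, which mark tissue that can adhere to a kidney sample, were also above 0 in 4 of 4 tested, with a median of 0.50 that ran from 0.36, without UNx CrePlus replicate 3, to 1.02, without UNx CrePlus replicate 2. All 8 genes of that list, tested or not, summed to 60 to 114 CPM in sham CreMinus and 36.6 to 56.3 in sham CrePlus kidneys. In UNx kidneys the sum was 38 to 83.6 in CreMinus and 33.9 to 67.1 in CrePlus libraries. The part of these genes in the matrix values was not tested.

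Cell cycle genes were above 0 in 22 of 22, with a median of 0.44, but 0 of 22 had an unadjusted p under 0.05 and their intervals reached a median of 1.48 to either side. The list median was 0.15 without UNx CrePlus replicate 2 and 0.83 without UNx CrePlus replicate 3. Their mean centred expression was 1.22, 1.40 and -0.17 in UNx CrePlus and 0.10, 0.42 and -0.83 in UNx CreMinus kidneys, so the female UNx CrePlus library lay within the UNx CreMinus range. Tubular injury genes had a median of 0.16, with 13 of 19 above 0 and 0 of 19 at that limit, and the median was 0.01 without sham CrePlus replicate 3 and 0.47 without UNx CreMinus replicate 2. Their expression was 0.83, -0.02 and -0.52 in sham CrePlus kidneys, against 1.17, 0.76 and 0.22 in UNx CrePlus kidneys, so that sham CrePlus replicate 1 exceeded 2 of the 3 UNx CrePlus libraries. Endothelial genes were above 0 in 12 of 12, with a median of 0.28 (0.13 without sham CreMinus replicate 1, 0.56 without sham CrePlus replicate 1), and 0 of 12 reached an unadjusted p under 0.05.

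Genes of the nephron segments lay slightly to the negative side. Loop of Henle and distal tubule genes had a median of -0.30, with 0 of 14 above 0, collecting duct genes -0.23 (3 of 16) and proximal tubule genes -0.20 (2 of 19). No tested gene of these 3 lists had an unadjusted p under 0.05. The collecting duct median was -0.01 without sham CrePlus replicate 2 and -0.58 without UNx CrePlus replicate 3, and within males it was 0.10, with 11 of 16 above 0. The loop and distal median ran from -0.58, without UNx CrePlus replicate 3, to -0.17, without sham CrePlus replicate 2, and the proximal tubule median from -0.30, without sham CreMinus replicate 3, to -0.14, without UNx CreMinus replicate 1. Mean centred expression of the loop and distal list was 0.01, 0.26 and 0.12 in sham CreMinus, 0.07, 0.22 and -0.23 in sham CrePlus, 0.09, 0.31 and 0.26 in UNx CreMinus and -0.61, -0.77 and 0.28 in UNx CrePlus kidneys. The 2 male UNx CrePlus libraries were lowest, and the male sham CrePlus library, at -0.23, came next. In summed CPM of this list, the lowest sham CrePlus library was at 8520 and the lowest UNx CrePlus library at 8100. The lowest sham CreMinus and UNx CreMinus libraries were at 11100 and 11600. Cholesterol synthesis genes were centred near 0 (-0.07, 4 of 20 above 0).

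**Figure D5:**
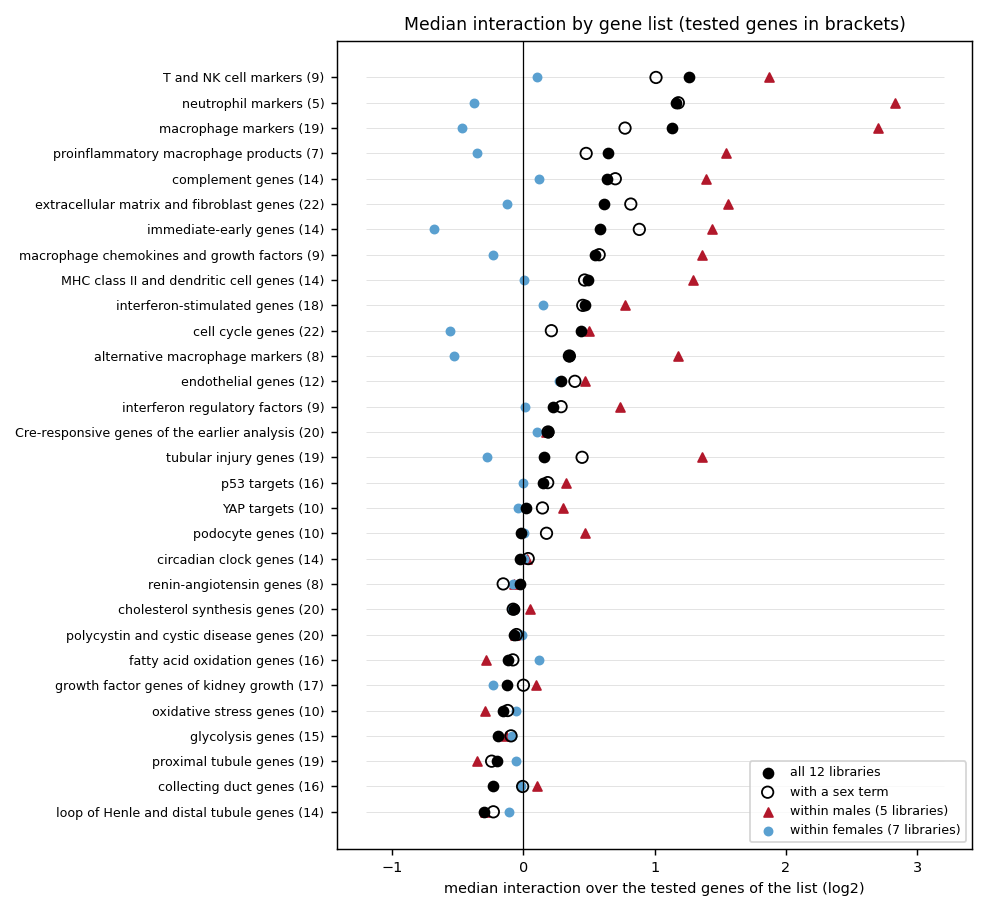
Median interaction (log2, x axis) over the tested genes of 30 lists, for all 12 libraries without and with a sex term and within each sex from a fit of 8 group-by-sex means. Macrophage markers sit at 1.13 over all libraries, 2.70 within males and -0.47 within females. Over all 12 libraries the loop of Henle and distal tubule genes sit at -0.30.

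Because UNx CrePlus held 2 males and the other groups 1 each, the interaction was also computed within each sex. With 8 group-by-sex means the male value rests on 5 libraries, with a single male in 3 of the 4 groups, and the female value on 7, with a single female in UNx CrePlus. Macrophage markers had a median of 2.70 within males (17 of 19 above 0) and -0.47 within females (2 of 19). The medians in males and females were 1.56 and -0.12 for matrix genes, 1.36 and -0.27 for injury genes, 0.50 and -0.56 for cell cycle genes and 0.77 and 0.15 for interferon-stimulated genes. The test of the difference between the sexes called 0 of 14970 genes, with a lowest adjusted p of 0.592, and 557 (3.72%) had an unadjusted p under 0.05, among them 16 of 19 macrophage markers and 11 of 19 injury genes, all higher in males. The macrophage integrin gene Itgam, picked after its values were seen, was at 7.76 CPM in the male and 1.72 and 1.79 in the female sham CreMinus libraries, and at 8.95 and 7.83 in the male and 3.53 in the female UNx CrePlus library. In males the values were high in UNx CrePlus and in the single sham CreMinus library, while the single male sham CrePlus and UNx CreMinus libraries were at 1.78 and 1.49 CPM.

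Within males that fit called 3 genes at an adjusted p of 0.0499, which were Fgg (4.54), Fasn (-1.85) and Ucp1, and within females it called 0, with 204 at an unadjusted p under 0.05. Fgg, a fibrinogen chain, was at 29.2, 24.7 and 9.80 CPM in UNx CrePlus and between 1.66 and 2.80 in UNx CreMinus kidneys, and in sham kidneys it ran from 2.81 to 13.2 in CreMinus and from 5.44 to 18.0 in CrePlus libraries. Fasn, the fatty acid synthase gene, was at 292 CPM in sham CrePlus replicate 3 and at 71.2 to 106 in the other 11 libraries. Ucp1, the heat-producing protein of brown fat, was at 33.8 CPM in that library and at 1.31 or less in all others, with 2 libraries at 0. Its fitted interaction of -9.65 therefore rests on sham CrePlus replicate 3, and its size depends on how counts near 0 are treated. The 8 fat cell genes summed to 136 CPM in that library and to 37.7 and 39.1 in the other sham CrePlus libraries, against 37 to 90.9 in the other groups.

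Among fits with 1 library left out, the count at an unadjusted p under 0.05 was highest without a sham CrePlus library. Without sham CrePlus replicate 1, which had the highest injury gene level among sham libraries, 808 genes (5.34%) had an unadjusted p under 0.05. Of these, 630 were positive. That library is numbered 1755, against 1744 to 1748 for the other sham libraries, and its title alone lacks a second number. The labels give no reason, and the cause of the change in count was not tested. Without sham CrePlus replicate 3, 290 genes had an unadjusted p under 0.05. Of these, 112 were positive and 178 negative, so that positive genes were no longer in excess. Neither were they without UNx CrePlus replicate 2 (86 positive, 111 negative), without UNx CreMinus replicate 1 (104 positive, 110 negative) or in the female libraries alone (69 positive, 162 negative). Without UNx CrePlus replicate 3, the female library of that group, there were 606, and without UNx CrePlus replicate 1 there were 164. With each of the 12 libraries left out in turn, edgeR called 0 genes.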

How the data were processed

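Whole-kidney total RNA was sequenced in 12 libraries. The labels' protocols name SMART-Seq v4 for library making, a chemistry without strand marks, so overlapping and antisense genes cannot be separated. Tools listed in the submitters' processing notes are HTSeq, DESeq2, cutadapt 1.11 and FastQC 0.11.5, and the builds are GRCm38 and mm10. For aligner and annotation, names were not given in the sources used here. The authors deposited whole-number counts per gene, and these counts were used as deposited. Of 24067 rows, 5 repeated a symbol with identical counts and were kept once.

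In R 4.3.3, edgeR 4.0.16 kept 14970 genes by filterByExpr, which can pass a gene on 3 libraries, such as those of 1 group. Library sizes were scaled by TMM (factors 0.925 to 1.05). The quasi-likelihood test (glmQLFit, glmQLFTest) of 4 group means gave the interaction, with Benjamini-Hochberg adjustment over all genes and a threshold of 0.05. SE is the size of the interaction divided by the square root of F. CPM is edgeR's, with TMM-scaled sizes, and log2 CPM used a prior count of 2. The summed CPM of a list instead uses library totals without TMM and all its genes with a row of counts, tested or not. The interaction is a ratio of ratios; on the CPM scale 97.4% of genes had the same sign. Positions come from a RefSeq table of GRCm38. The script was tested on simulated data.

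The labels carry no replicate numbers or sex. Replicates are numbered in accession order, and the labels give 3 mice a group without tying library numbers to animals, so the spread behind a p-value may in part be technical. The genes, the 38 lists (519 entries, 462 tested) and the tests were chosen with earlier results of these data known. Named genes are Pkd1, Irf5, the 12 positive and the 12 negative genes of smallest p (mean 1 CPM or more, no systematic symbol), up to 3 members of each list at an unadjusted p under 0.05, all tested interferon regulatory factors and the earlier Cre-responsive genes. Besides the genes described, the rule takes a further gene that is not reported here. Alternatives were DESeq2 1.42.0, limma 3.58.1 voom, RLE scaling, other count filters, sex and depth terms, each sex alone, robust moderation and leaving out each library. The 8 group-by-sex means, and a sex term without sham CrePlus replicate 1 or 3, were added after the data were seen.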

Additional observations from a re-analysis of the deposited data

How the results depend on the processing

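The count of genes called at an adjusted p under 0.05 was 0 under every alternative run on both sexes, with each library left out (0 to 0), and in females. It was 116 by edgeR in the 5 male libraries alone, where 1 residual degree of freedom came from the pair of UNx CrePlus males and single libraries are assumed to vary like them, and 3 in males from 8 group-by-sex means. With 1 library left out, the count at an unadjusted p under 0.05 ran from 164 (1.09%) without UNx CrePlus replicate 1 to 808 (5.34%) without sham CrePlus replicate 1. That count was 386 (1.95%) without a low-count filter and 250 (1.79%) at 1 CPM or more in 3 libraries. With sex and depth terms it was 651 (4.35%), and with a sex term and without sham CrePlus replicate 1 it was 1306 (8.63%). A share of about 0.05 would be expected if no gene had an interaction, and 808 and 1306 exceed it. Fits within males, with single libraries in most groups, are not part of this range. Of 73 named genes, 62 kept the sign of their interaction in each of the 26 alternatives that gave them a value, and each reversal below is of a gene not called over all libraries. The causes were not tested. No paired analysis was possible because the labels give no replicate numbers that tie a library of 1 group to a library of another.

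Reversed interactions, on the log2 scale, were as follows. With limma voom, Esr1 was at -0.0367, Pcolce2 at 0.0159 and Irf4 at 0.079. With a sex term, Pkd1 was at 0.014, Esr1 at -0.222 and Pcolce2 at 0.213. With sex and depth terms, Pkd1 was at 0.0929, Esr1 at -0.468, Pcolce2 at 0.391 and Irf4 at 0.564. In female libraries alone, C1qb was at -0.0923, Esr1 at -0.615, Psrc1 at -0.211, Pcolce2 at 0.0761 and Irf8 at -0.249, and from 8 means they were at -0.0989, -0.622, -0.215, 0.0689 and -0.255. In male libraries alone, Pkd1 was at 0.153, Pkd2 at -0.0169, Lad1 at 0.044, Reep6 at 0.0421, Psrc1 at -0.0419, Pcolce2 at 0.29 and Irf4 at 1.95, and from 8 means they were at 0.118, -0.0517, 0.00972, 0.00748, -0.0753, 0.255 and 1.91. With a sex term and without sham CrePlus replicate 1, Pkd1 was at 0.131, Esr1 at -0.0712, Pcolce2 at 0.184 and Irf4 at 0.513. With a sex term and without sham CrePlus replicate 3, Esr1 was at -0.714, Psrc1 at -0.016 and Pcolce2 at 0.229. Leaving out each library gave -0.202 to 0.13 for Pkd1, -0.505 to 0.192 for Irf5, -0.363 to 0.742 for Esr1, -0.202 to 0.363 for Psrc1, -0.405 to 0.266 for Pcolce2 and -0.642 to 0.476 for Irf4. Low counts limit the genes under 1 CPM, whose intervals are widest.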

Other observations

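Genes whose Cre difference had opposite directions in the 2 kinds of kidney, with no overlap between CrePlus and CreMinus libraries in either, were counted after the data were seen. Of 14970 genes, 11 had CrePlus above CreMinus in UNx and below it in sham kidneys. In 3 genes, Nbas, Cbx2 and Aldh1l1, the order was reversed. Taken singly, CrePlus lay above CreMinus without overlap in 8.33% of all genes in UNx and in 4.66% in sham kidneys. It lay below in 7.47% in UNx and in 3.49% in sham kidneys. Both counts are small beside these shares, and nothing is read from them. Aldh1l1, a folate enzyme abundant in kidney, was at 615, 609 and 587 CPM in sham CreMinus, 632, 699 and 678 in sham CrePlus, 682, 640 and 625 in UNx CreMinus and 511, 562 and 569 in UNx CrePlus kidneys. Its separations were narrow, and the interaction was -0.40, with an unadjusted p of 0.0108.

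Among lists not described above, immediate-early genes had a median interaction of 0.58, with 12 of 14 above 0, and Myc (1.07 ± 0.35) and Dusp1 (0.95 ± 0.39) had an unadjusted p under 0.05. Myc was at 7.92, 6.95 and 4.63 CPM in sham CreMinus, 6.65, 6.12 and 5.04 in sham CrePlus, 3.09, 5.24 and 5.07 in UNx CreMinus and 8.72, 9.75 and 7.07 in UNx CrePlus kidneys. The list median was -0.07 without UNx CrePlus replicate 2. It was 1.44 within males (14 of 14 above 0) and -0.68 within females (3 of 14). Fatty acid oxidation genes (2 of 16 above 0, median -0.12), glycolysis genes (2 of 15, -0.19) and circadian clock genes (5 of 14, -0.03) stood beside a median of -0.02 and a share above 0 of 45.3% over all genes, and podocyte genes had a median of -0.02 (4 of 10). When single libraries were left out, the podocyte median ran from -0.28, without UNx CrePlus replicate 3, to 0.19, without sham CrePlus replicate 1, and the clock median from -0.15, without UNx CrePlus replicate 1, to 0.12, without UNx CrePlus replicate 2. The fatty acid oxidation median ran from -0.20 to -0.04 and the glycolysis median from -0.27 to -0.10.

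Macrophage chemokines and growth factors were above 0 in 8 of 9 (median 0.55) and alternative macrophage markers in 6 of 8 (0.34). Neutrophil markers were above 0 in 4 of 5 (1.16) and B and plasma cell markers in 2 of 4 (0.24), against 45.3% of all genes. Within females the medians were -0.23 (3 of 9), -0.53 (1 of 8), -0.38 (2 of 5) and 0.03 (2 of 4), in this order. Within males they were 1.36 (9 of 9), 1.18 (7 of 8), 2.83 (4 of 5) and -0.09 (1 of 4). Of the genes with counts, 9 of 13, 8 of 10, 5 of 7 and 4 of 6 passed the count filter. A low gene may have entered through UNx CrePlus alone. The neutrophil median was 0.02 without sham CreMinus replicate 3, the B and plasma cell median -0.26 without sham CreMinus replicate 1, and the alternative macrophage median 0.13 without sham CrePlus replicate 2. Growth factor genes were above 0 in 6 of 17 (-0.13), oxidative stress genes in 1 of 10 (-0.16), YAP targets in 5 of 10 (0.02) and renin-angiotensin genes in 4 of 8 (-0.03). The growth factor median was 0.01 without UNx CreMinus replicate 1, the oxidative stress median -0.02 without sham CrePlus replicate 3, the YAP target median 0.33 without sham CrePlus replicate 1 and the renin-angiotensin median -0.20 without sham CreMinus replicate 3. Female-biased kidney genes were above 0 in 0 of 5 (-0.90) and male-biased ones in 6 of 11 (0.02, from -2.35 without sham CreMinus replicate 3 to 3.62 without sham CrePlus replicate 3), with intervals reaching a median of 2.8 and 5 to either side.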
